A study of Bubalus bubalis with 8 samples.

Results

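The comparison described here set the array of buffalo mammary epithelial cells (MECs) harvested 30 min after heat stress against the array of unstressed control cells (CTR), and it is the earliest recovery time in a series of 8 arrays. Riverine buffalo (Bubalus bubalis) MECs were grown as a primary culture from the mammary tissue of 1 healthy adult female and used at passage 10. Cells in collagen-treated wells were kept at 37 °C throughout (CTR) or exposed to 42 °C for 1 h, returned to 37 °C and harvested by trypsinisation after 30 min, 2, 4, 8, 12, 16 or 24 h. RNA of each condition was labelled with cyanine 3 and hybridised to 1 one-colour Agilent bovine array, so every buffalo transcript was read through 60-base probes designed on cattle sequence. All cells therefore come from 1 animal and 1 culture that had been passaged repeatedly, and there was 1 array per condition. No test between conditions was possible, and no p-value is given. A probe entered the comparison when it was well above background on the CTR or the 2 h array and lay outside a patch of the CTR array that was dark. These rules kept 16446 of 43653 probes, of which 13886 (84.4%) carried 1 of 8299 gene symbols, out of 15661 symbols on the array.

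When cells meet a temperature above their normal range, proteins unfold, the transcription factor HSF1 is released from chaperones, and genes for heat shock proteins are transcribed at a high rate while most other transcription slows. Inducible HSP70 proteins (HSPA1A, HSPA6), their J-domain partners (DNAJB1), HSP110 (HSPH1) and the small heat shock proteins then bind unfolded proteins and refold them or pass them on for degradation. Stressed cells also induce immediate early genes, whose transcription starts without new protein synthesis, and can signal through NF-κB to chemokine and cytokine genes. Mammary epithelial cells in culture keep keratins and cell junction proteins of the luminal and basal layers, whereas the caseins and whey proteins of milk depend on lactogenic hormones and contact with matrix.

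The probes below carried the values that the main groups of genes turn on, and the first 30 bases of each are printed 5′ to 3′ in the orientation of the array design, with positions as the array annotation gives them on the cattle build HGSC Btau_3.1. HSPA6 is an inducible cytosolic HSP70 (chr3:8748912-8748971, minus strand). IL8 is a neutrophil chemokine (chr6:91792569-91792628, plus strand). LAPTM5 is a lysosomal membrane protein of blood cells (chr2:126807761-126807820, plus strand). CSN3 is κ-casein, which keeps casein micelles in suspension (chr6:88532352-88532411, plus strand). COL4A1 is a chain of basement membrane collagen (chr12:82952077-82952136, minus strand). KRT8 is the type II keratin of simple epithelia, and its annotated span is longer than the probe (chr5:30002293-30002931, plus strand).
HSPA6: accagttagcagacaaagaggaatatgagc
IL8: tgttaagcttaccaatggaaacgaggtctg
LAPTM5: caccaacaccccttgtgctactgctttgtg
CSN3: agcccacctgagatcaacacagtccaagtt
COL4A1: tagaaacatagcccgtgtacctcactgtcc
KRT8: acttctacaggcaactgtatgaagaggaga

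Levels are given as log2 signal above the 75th percentile of the same array, so that a level of 0 lies at that percentile, and a change is the 30 min level minus the CTR level on the same log2 scale. The values came from the deposited log2 table, because the 30 min scanner file no longer followed its spot grid in the lower array rows: the correlation across probes between deposited and scanner changes was 0.25 for the 30 min array and at least 0.999 for the other 6 heat arrays. Detection reached down to a level of -0.20 on CTR and -1.19 at 30 min, and 26.5% and 33.6% of all probes lay above it. A probe under the limit is called dim here, and a gene is counted as dim where its quoted probe, the middle one by change, is dim; where a gene was dim on one array, its fold is written as "at least" and runs to the detection limit. The only measure of technical error was the spread of 16 probes spotted repeatedly on the CTR array, with an SD of 0.21, which puts the error of a difference between spots near 0.30. That figure holds no variation of labelling, hybridisation, slide or culture, so the error of a difference between arrays was not measured and may be larger. Different probes of 1 gene, taken where they were above background on all 8 arrays, gave changes with an SD of 0.57 (1480 genes). For 123 of these genes (8.31%) the probes lay more than 3-fold apart. The same SD was 0.56, 0.52 and 0.64 on the 2, 4 and 16 h arrays and 0.36 on the 8, 12 and 24 h arrays. It does not cover probes that were dim on CTR. CTR shared its slide with the 8, 12 and 24 h arrays, and the 30 min array shared its slide with 2, 4 and 16 h, so slide and heat cannot be told apart in this comparison. The dark patch held 3369 probes. Around it lay a margin with 1898 of the probes kept, whose median change was 0.14 against -0.30 elsewhere; genes quoted from a probe in that margin are marked, and no fold is given for them.

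On the CTR array the cells carried the keratins of mammary epithelium. KRT17, KRT19, KRT5 and KRT14 stood at levels of 7.49, 7.07, 6.03 and 5.57, E-cadherin (CDH1) at 3.41 and the adhesion protein EPCAM at 2.52, while both KRT18 probes were dim. Of the luminal markers 12 of 15 and of the basal markers 9 of 10 entered the comparison. The summed level of the 24 leukocyte markers that entered, taken on the linear scale with the 75th percentile at 1, was 85.1 on CTR and 393 at 30 min. Of these 24 markers, 17 were dim on CTR and 1 was dim at 30 min. The probes quoted for these 17 entered through the 2 h array, so the sums describe the markers and do not support a difference. The 8 markers with a probe above background on both arrays had a median change of -0.25. The sums of the 24 on the remaining arrays, in order of time from 2 to 24 h, were 325, 62.1, 68.5, 53.8, 96.2 and 66.5. In a bulk sample, fewer cells of a type and less RNA per cell cannot be told apart. The smooth muscle and pericyte markers summed to 203 on CTR and 52.3 at 30 min, the fibroblast markers to 197 and 222 (187 and 119 without S100A4, which leukocytes also carry), the luminal markers to 240 and 111, and the basal markers to 344 and 166. Endothelial markers were close to absent from the comparison, with 2 of 11 entering and a sum of 15.1 and 16.9.

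At a 3-fold difference, the threshold of the study, 1768 of the 16446 probes were higher at 30 min (10.8%) and 1778 were lower (10.8%). Of the probes that changed, 49.9% were higher (95% exact binomial interval 48.2 to 51.5%, which covers counting error only). That interval takes probes as independent, which probes of 1 gene on the same arrays are not, so it is too narrow. The median change over all probes was -0.24, and centring the changes on it gave 2133 higher and 1314 lower probes, 61.9% of them higher. Among the 10237 probes above background on both arrays, 280 were higher (2.74%) and 783 lower (7.65%), a falling majority. Of the higher probes 1488 were above background only at 30 min, and of the lower probes 724 only on CTR, classes in which the limits leave 1 direction for a 3-fold change. A further 271 lower probes and 0 higher probes were dim on both arrays and so had no measured change. With dim values moved to their detection limit, 820 probes stayed 3-fold higher (4.99%) and 1091 stayed 3-fold lower (6.63%). Counted by gene, at the median over a gene's probes, 870 of 8299 genes were 3-fold higher (10.5%) and 754 were lower (9.09%), and at the detection limit 386 (4.65%) and 438 (5.28%). The counts of gene groups below stand beside these shares of all genes. Among the 5701 genes with a probe above background on both arrays 160 rose (2.81%) and 330 fell (5.79%). Genes that were dim on CTR entered through the 2 h array, and the 30 min and 2 h arrays resembled each other, so the counts of gene groups that were mostly dim on CTR describe those groups and do not support a difference. Of the 308 probes that entered through CTR alone, 288 were 3-fold lower and 0 higher. Falls of probes that were dim at 2 h therefore describe those probes and do not support a difference.

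**Figure D1:**
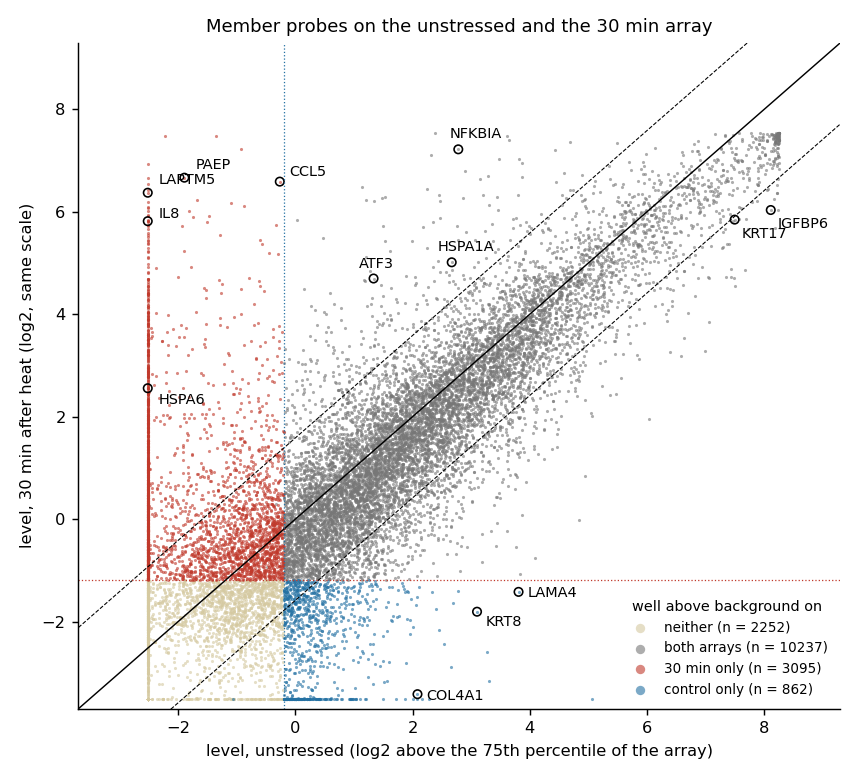
Level of each of the 16446 probes on the CTR array (x axis) and at 30 min (y axis), in log2 units above the 75th percentile of the array, with the detection limits of -0.20 and -1.19 marked. Of the 10237 probes above both limits 280 lay more than 3-fold above the diagonal and 783 more than 3-fold below it.

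Of the heat shock genes, the inducible HSP70 genes HSPA6 and HSPA1A rose at 30 min, while most chaperones lay within 3-fold of CTR. Of the HSP70 family, 8 of 12 members on the array entered, 2 rose, 1 fell and the median was -0.55, beside -0.22 for all genes. HSPA6 was dim on CTR at -2.52 and stood at 2.56 at 30 min, at least 6.76-fold higher. It then stood at -0.92 at 2 h, and at 3.64 and 0.33 at 8 and 12 h, and was dim on the 4, 16 and 24 h arrays, so that it was high early and again at 8 h. HSPA1A, the main inducible HSP70, was higher on all 4 of its probes by 1.44 to 3.85. The probe quoted for HSPA1A stood at 2.67 on CTR and 5.01 at 30 min (5.08-fold higher), then at 4.76, 3.45, 7.71, 5.06, 2.59 and 1.84 from 2 to 24 h. The highest HSPA1A level thus came at 8 h and not at 30 min. HSPA8, the constitutive HSP70, changed by -0.72 to 0.32 over 4 probes. HSPA12A, a distant relative of the family, fell from 0.34 to a dim value (at least 2.89-fold lower), on a probe that was dim at 2 h.

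The partners of HSP70 showed smaller differences. None of the 11 genes for HSP90, HSP110 and HSP60/10 passed 3-fold, and their median was 0.22. HSPH1, the HSP110 that exchanges nucleotide on HSP70, stood at 1.54 on CTR and 3.03 at 30 min, 2.81-fold higher and just under the threshold. HSP90AB1, a constitutive HSP90, changed by 0.40 to 1.68 over 5 probes with a median of 0.97. HSP90AA1, the inducible HSP90, changed by -0.44 to 1.77 over 6 probes, which do not share a direction. None of the 19 DNAJ co-chaperones passed 3-fold (median -0.45); the 2 probes of DNAJB1 changed by 0.69 and 1.67. The 8 subunits of the cytosolic chaperonin TRiC changed by -1.18 to 0.31, again with none past 3-fold.

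Of 8 small heat shock proteins and BAG proteins, 1 rose and 1 fell (12.5% each, near the 10.5% and 9.09% of all genes). With dim values at the detection limit 0 rose and 1 fell. HSPB8, which works with BAG3 in selective autophagy, rose on its brightest probe from a dim -1.52 to 3.80 (at least 16.0-fold higher), while its other probes ended at -0.59 and -0.73, too low to give a fold. HSPB6, the small heat shock protein of muscle, fell from 1.19 to -0.65 (3.60-fold lower). HSPB1 (HSP27) stood at 6.59 and 7.16. BAG3 changed by -1.30 to 0.98 over 3 probes, and the same 3 probes changed by -0.26 to 2.63 at 8 h. CRYAB (αB-crystallin) was at -1.58 and -0.99 on CTR and at 30 min, and at 4.85 and 4.90 at 8 and 12 h. HSF1 itself stood at 3.44 and 3.39 on its brightest probe, and its other probes, both close to the detection limits, changed by -1.31 and -0.73.

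**Figure D2:**
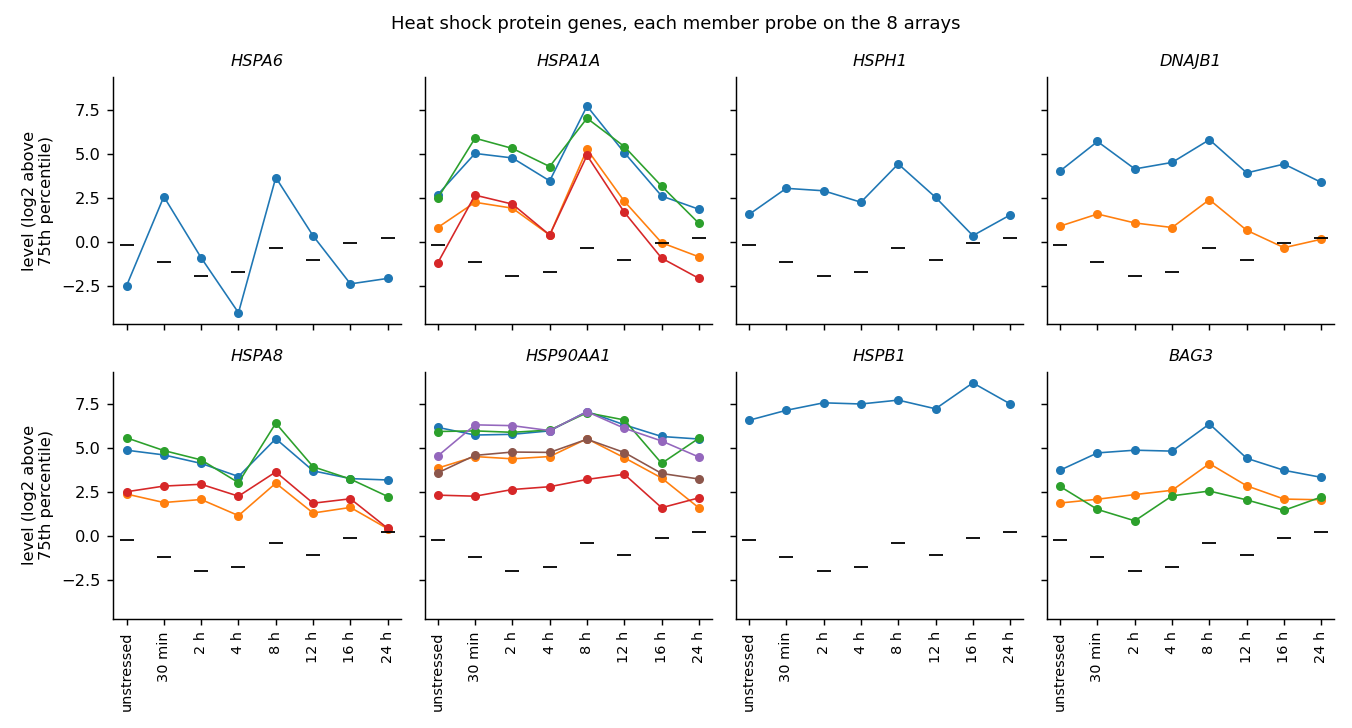
Level of 8 heat shock genes (y axis, log2 above the 75th percentile of the array) on the unstressed array and the 7 heat arrays (x axis), with 1 line per probe and the detection limit of each array as a black dash. HSPA6 and HSPA1A lay above CTR at 30 min, by 5.07 on the only HSPA6 probe and by 1.44 to 3.85 over the HSPA1A probes, and both were higher still at 8 h.

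In the endoplasmic reticulum group, 3 of 18 genes rose (16.7%), 1 fell (5.56%) and the median was 0.39. The shares of all genes were 10.5% and 9.09%. DDIT3 (CHOP), the transcription factor of prolonged ER stress, rose on both probes; the probe outside the margin went from -2.52 to 2.32, at least 5.74-fold higher, and the probe in the margin from -2.02 to 1.39. HERPUD1, which helps degrade ER proteins, rose by 1.76 at the median of 2 probes. HSPA5 (BiP), the main ER chaperone, stood at 1.82 and 2.86, and its 4 probes changed by 0.56 to 1.54, all under 3-fold. ATF4, which acts upstream of DDIT3, stood at 3.53 and 2.87. EDEM1, a mannosidase-like protein of ER-associated degradation, counted as a rise at its median, but its 2 probes changed by 0.98 and 5.90 and do not give 1 answer. SERPINH1 (HSP47), the ER chaperone of collagen, fell on both probes by 3.54 and 2.81, from 2.12 to -0.69 on the probe quoted (7.03-fold lower).

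Of 31 immediate early and stress transcription genes 13 rose, 2 fell and the median change was 1.34. With dim values at the detection limit 7 rose, 2 fell and the median was 0.21. Of the 27 with a probe above background on both arrays, 9 rose and 2 fell, with a median of 0.32. JUNB, an AP-1 subunit, rose from 2.77 to 5.45 (6.40-fold). ZFP36, which destabilises cytokine mRNAs, rose from 1.89 to 4.75 (7.26-fold). IER2 rose from 0.27 to 3.09 (7.09-fold) and the small MAF protein MAFF from 0.89 to 3.12 (4.70-fold). These 4 genes were measured on both arrays. The orphan nuclear receptor NR4A1 rose on all 3 probes, from 0.47 to 5.49 on the probe measured on both arrays (32.4-fold higher). ATF3, read in the margin, stood at 1.34 and 4.70. Other well-known genes of the group lay within 3-fold of CTR. FOS changed by -0.67 to 0.37 over 3 probes, JUN by 0.18, EGR1 by -0.30 and MYC from 3.95 to 3.13.

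The falls in this group were the matricellular genes CTGF and CYR61, which are targets of YAP and SRF. CTGF fell on both probes, from 4.95 to 2.32 on the probe quoted (6.18-fold lower), and CYR61 from 3.76 to 1.53 (4.66-fold lower). On the other arrays of the slide, 2, 4 and 16 h, the group's medians were 0.78, -0.14 and 0.17. The CTGF probe stood at 2.46, 3.11, 3.90, 3.65, 3.34 and 3.91 from 2 to 24 h, below CTR on every heat array.

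Chemokine genes had the highest median change of the 40 gene groups. Of 18 on the array 14 entered, 12 rose (85.7%, beside 10.5% of all genes), 0 fell and the median change was 5.83. On the probes quoted, 10 of the 14 were dim on CTR and entered through the 2 h array. The count and the rank therefore describe the group and do not support a difference. With dim values at the detection limit 10 still rose and the median was 4.46. The 4 with a probe above background on both arrays had a median of 4.05, and 3 of them rose. CXCL3, a ligand of the neutrophil receptor CXCR2, was measured on both arrays at 0.03 and 5.85 (56.5-fold higher). GRO1 (CXCL1), of the same ligand group, rose from 1.47 to 6.28 (27.9-fold), and the monocyte chemokine CCL2 rose from 1.46 to 4.57 (8.67-fold). IL8 was dim on CTR on both probes. Its probe outside the margin went from -2.52 to 6.42, at least 98-fold higher, and the probe printed above from -2.52 to 5.82. On that probe the IL8 level was 5.78 at 2 h and dim on all 5 later arrays. CCL5 reached 6.59, at least 111-fold higher, CCL4 reached 5.54 (at least 53.5-fold) and CCL3 reached 4.80 (at least 31.9-fold). CXCL10, dim on both arrays, and CXCL16 changed by 0.86 and 0.56 and did not pass.

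Of the interleukins, TNF and colony stimulating factors, 12 of 21 on the array entered, 9 rose, 0 fell and the median was 3.25. All 12 were dim on CTR on the probes quoted, and with dim values at the detection limit 7 rose. IL1B, a proinflammatory cytokine, rose on all 4 probes by 6.37 to 9.17, and the probe quoted reached 3.94 (at least 17.7-fold). TNF reached 2.49 (at least 6.44-fold) and IL10, an anti-inflammatory cytokine, 0.79 (at least 1.98-fold, so the bound itself lies under 3-fold). IL6 reached only -0.45 on the probe quoted, too low for a fold. On the same probes IL1B, TNF, IL6 and IL10 were dim on the arrays from 4 to 24 h.

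NF-κB subunits and the feedback genes that NF-κB switches on gave 12 rises and 0 falls of 16, with a median of 2.51. Of these, 13 were dim on CTR, and with dim values at the detection limit 8 rose and the median was 1.62. NFKBIA (IκBα), the inhibitor that NF-κB induces to end its own activity, was measured on both arrays with the probe quoted at 2.78 and 7.22 (21.7-fold higher), and its 4 probes rose by 3.86 to 5.14. The NFKBIA level was then 7.02, 4.28, 1.42, 1.49, 5.05 and 2.05 from 2 to 24 h. SOD2, the mitochondrial superoxide dismutase, reached 3.41 (at least 12.2-fold), and the ubiquitin editing enzyme TNFAIP3 (A20) reached 0.87 (at least 2.10-fold). The subunit RELA (p65) changed by 0.13.

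Leukocyte markers moved together with the chemokines, cytokines and NF-κB genes. Of 24 that entered, 17 rose, 1 fell and the median was 3.49. LAPTM5 went from -2.52 to 6.37, at least 95.1-fold higher, and stood at 6.24, 1.43 and 3.49 on the 2, 4 and 16 h arrays, but was dim on the 8, 12 and 24 h arrays. TYROBP, a signalling adaptor of myeloid and NK cells, reached 5.74 (at least 61.5-fold), CD68, a lysosomal marker of macrophages, 5.17 (at least 41.3-fold), and CSF1R, the receptor for the macrophage growth factor, 4.18 (at least 20.8-fold). These genes were dim on CTR. PTPRC (CD45), the pan-leukocyte phosphatase, was measured on both arrays on 1 of 3 probes, at 1.72 and 3.15 (2.70-fold higher), and went from a dim -0.81 to 2.66 on its middle probe (at least 7.26-fold). The T and B cell markers were mixed: CD8A rose by 2.85, CD3E at the median of 2 probes by 2.73 and CD2, in the margin, by 1.95, all from dim values, whereas CD3D stood at 1.73 and 1.93 and CD4 at 3.49 and 2.07, and CD79A fell from 1.01 to -1.03 (4.11-fold lower). The 8 markers that were above background on both CTR and 2 h had a median change of -0.25. Of the list, CD79B, MS4A1, ITGAM, CD163 and MARCO did not enter. The part of leukocyte RNA in the values of the chemokine, cytokine, NF-κB and MHC genes was not tested.

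Antigen presentation genes belonged to the same rise. All 5 of the MHC class II genes that entered, of 8 on the array, rose, with a median of 3.16. BOLA-DRA, the α chain of the class II DR molecule, went from -1.67 to 6.23 (at least 86.4-fold), and CD74, its escort in the ER, rose on all 5 probes, reaching 3.10 on the probe quoted (at least 9.86-fold). BOLA-DQA1 was measured on both arrays at 0.33 and 3.49 (8.93-fold higher). Of 11 class I and peptide loading genes 7 rose (4 with dim values at the detection limit), 0 fell and the median was 1.98. Class I heavy chains annotated as BOLA rose on all 9 probes by 2.28 to 4.21, from 0.25 to 3.57 on the probe quoted (9.99-fold); these genes are near-identical copies, so the probes cannot be assigned to 1 locus. PSMB9, an immunoproteasome subunit, went from -0.39 to 3.71 on its probe outside the margin (at least 15.0-fold), whereas the peptide transporters TAP1 and TAP2 changed by -0.54 and 0.31.

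Alarmins and acute phase defence genes divided: 10 of 19 rose, 1 fell, the median was 1.70 and 17 were dim on CTR. S100A12, an alarmin of neutrophils, reached 3.92 (at least 17.4-fold), S100A9 reached 3.41 (at least 12.2-fold), and TAP, the tracheal antimicrobial peptide and not the peptide transporter, reached 4.05 (at least 19.0-fold). S100A8 was read in the margin at -1.56 and 4.52. The 1 counted as a fall was LCN2, a siderophore-binding protein, at -0.66 and -2.38 in the margin, dim on both arrays and so without a measured change. Of 21 interferon response genes 5 rose (3 at the detection limit) and 0 fell, with a median of 0.87. ISG15, the ubiquitin-like modifier, rose from 3.87 to 6.96 (8.51-fold) and IFIT2 reached 2.95 (at least 8.89-fold), while MX1 stood at 2.31 and 3.26, IFIT1 changed by -0.05 and IFI6 by -0.63.

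Milk protein genes were dim on CTR and above background at 30 min on the probes quoted. All 6 caseins and whey proteins rose, and 4 still did at the detection limit. CSN3 went from -2.52 to 2.92 (at least 8.68-fold) on the probe printed above. CSN1S1 (αS1-casein) rose on all 6 probes by 3.15 to 6.42 and CSN2 (β-casein) on 2 of 3, with the probes quoted at 2.12 (at least 4.99-fold) and 0.92 (at least 2.17-fold). The remaining CSN2 probe was above background on every array, at 2.22 on CTR and 3.37 at 30 min (2.22-fold higher). LALBA (α-lactalbumin), the regulator of lactose synthase, reached 1.52 (at least 3.29-fold). PAEP, the annotated name of β-lactoglobulin, stood at 6.67 on a probe in the margin. These levels were low beside those on the later arrays of the same slide. On the 2, 4 and 16 h arrays the quoted CSN2 probe stood at -0.48, 7.34 and 8.38 and that of CSN3 at 3.35, 3.60 and 4.44, and both were dim on the 8, 12 and 24 h arrays. The median of the 6 genes at 30 min was 3.58 below that at 4 h and 4.28 below that at 16 h. Their summed linear level was 1.14 on CTR and 120 at 30 min. It was 56.0, 647 and 1330 on the 2, 4 and 16 h arrays, and lay between 0.96 and 1.64 on the 3 heat arrays of the CTR slide. On the probes quoted, the 6 genes were above background on the 4 arrays of the 30 min slide and dim on the 4 arrays of the CTR slide, and the part of the slide was not tested.

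Genes of milk fat synthesis and the fat globule gave 9 rises and 1 fall of 14, with a median of 1.80. Of the 14, 9 were dim on CTR, and with dim values at the detection limit 4 rose, 1 fell and the median was 0.33. FABP4, a fatty acid binding protein also used as an adipocyte marker, reached 5.38 (at least 47.8-fold). PLIN2, which coats lipid droplets, was measured on both arrays at 0.13 and 3.31 (9.03-fold higher). SCD, the Δ9 desaturase, rose at its median over 7 probes, with changes of 1.27 to 3.24 and the probe quoted at 3.32 and 5.37 (4.12-fold). On that probe SCD stood at 7.08 and 7.61 at 4 and 16 h. FASN (fatty acid synthase) stood at 4.17 and 4.53 on its brightest probe, and its 3 probes changed by 0.36 to 0.50. GPAM, which starts triglyceride synthesis, fell from 0.62 to a dim -1.88 (at least 3.49-fold lower) and stood at 4.40 and 4.28 at 4 and 16 h. The adipocyte markers gave 3 rises of 4 and summed to 2.86 on CTR and 48.4 at 30 min, most of it from FABP4, and their part was not tested.

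Of 16 cholesterol synthesis and uptake genes 6 rose and 0 fell, with a median of 1.42. SQLE, squalene epoxidase, rose from 2.67 to 4.86 (4.57-fold) and FDFT1, squalene synthase, from 0.30 to 2.47 (4.51-fold). INSIG1, which retains the sterol sensor in the ER, went from -0.92 to 2.26 (at least 5.50-fold). The group's medians on the 2, 4 and 16 h arrays were 1.37, 1.65 and 0.64, against -0.19, -0.72 and 0.05 on the 8, 12 and 24 h arrays.

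**Figure D3:**
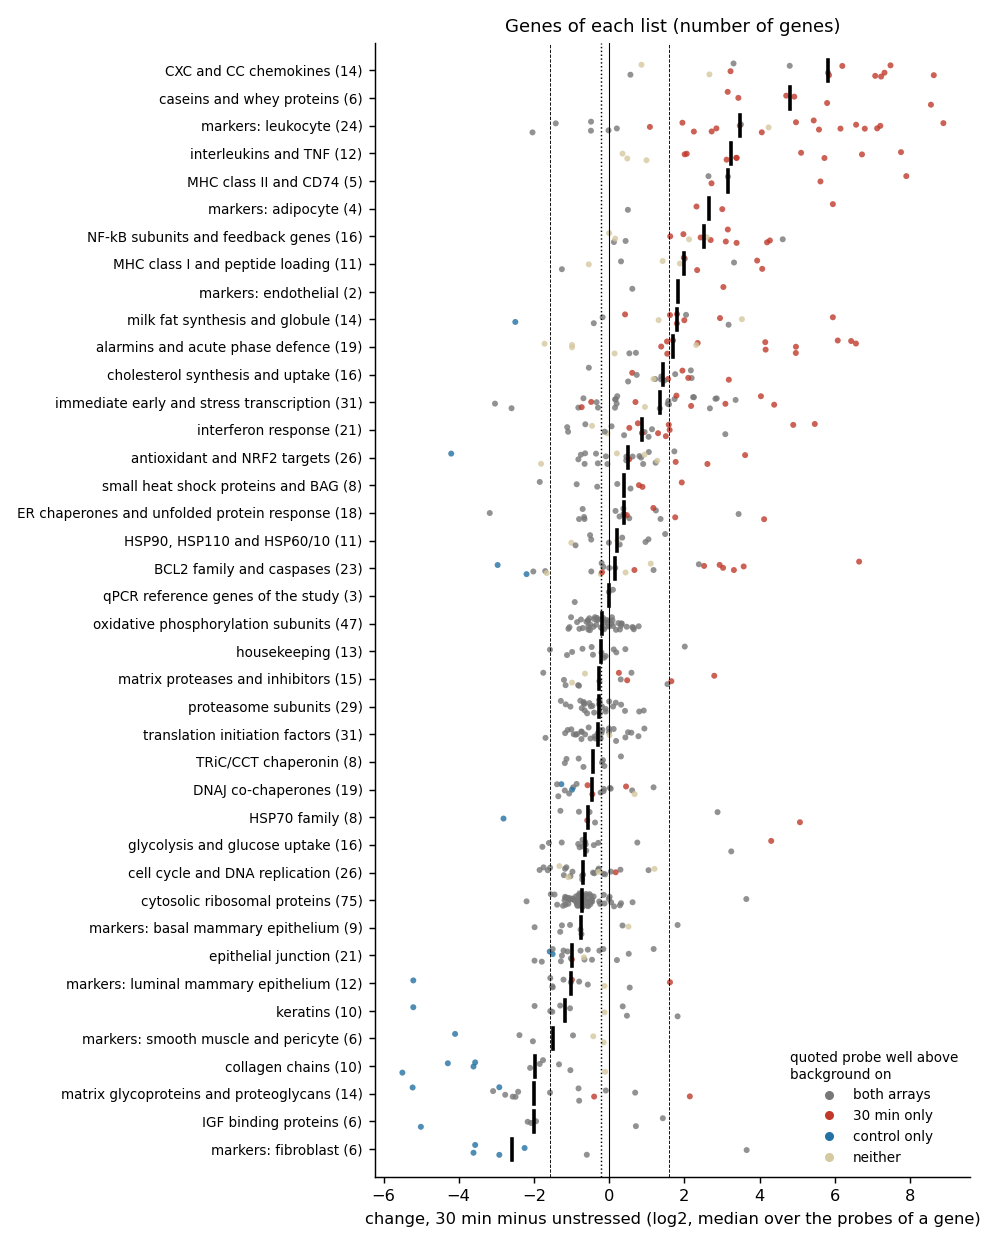
Change of each gene at 30 min against CTR (x axis, log2), with 1 row per gene group, points for genes coloured by the arrays on which the quoted probe was above background, a bar for the group's median and dashed lines at 3-fold. Chemokine genes had a median of 5.83 and collagen chains one of -1.98, beside -0.22 for all 8299 genes.

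Genes of the extracellular matrix were among the strongest falls. Of 10 collagen chains that entered, of 16 on the array, 7 fell and 0 rose, with a median of -1.98, and all 7 falls held at the detection limit. On the probes quoted 5 of the 10 were dim at 30 min. Of the 5 with a probe above background on both arrays, 3 fell. COL4A1 fell on all 3 probes by 5.01 to 5.85, from 2.08 to a dim -3.41 on the probe printed above (at least 9.66-fold lower). That probe was dim at 2 h as well and stood at -0.55, 1.50, 1.86, 0.41 and 1.38 on the arrays from 4 to 24 h. COL4A2, its partner chain, fell from 0.79 to the floor of the array (at least 3.93-fold lower). The probes of COL4A1 and COL4A2 were dim at 2 h and entered through CTR alone. The fibrillar chains COL1A1 and COL3A1 fell from 1.64 and 1.67 to dim values (at least 7.09-fold and 7.24-fold lower). COL7A1, the anchoring fibril collagen made by basal epithelium, was measured on both arrays at 7.30 and 5.61 (3.24-fold lower).

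Laminins and fibronectin fell with the collagens: 7 of 14 matrix glycoproteins and proteoglycans fell, 1 rose and the median was -2.00. FN1 (fibronectin) fell on all 13 probes by 1.59 to 4.09, from 1.90 to -0.86 on the probe quoted (6.80-fold lower). The laminin chain LAMA4 fell from 3.81 to a dim -1.42 (at least 31.9-fold lower). LAMB3, a laminin chain of epithelial anchorage, fell from 4.83 to 2.71 (4.36-fold lower). LAMB1 fell from 4.25 to 1.76 (5.62-fold lower). Tenascin C (TNC) stood at 1.89 and 1.91 and the proteoglycan VCAN was the rise, by 2.14. Of 15 matrix proteases and inhibitors 2 rose (13.3%) and 1 fell (6.67%), near the 10.5% and 9.09% of all genes, with a median of -0.26.

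Keratins changed unequally. Of 10 keratins 2 fell, 1 rose and the median was -1.17. KRT8 fell on all 4 probes by 3.70 to 5.66. Its brightest probe was measured on both arrays at 6.99 and 3.28 (13.0-fold lower), and the probe printed above went from 3.10 to a dim -1.81 (at least 19.5-fold lower). The latter stood at -0.20 and -0.57 on the 2 and 4 h arrays, was dim at 16 h, and stood at 2.32, 2.79 and 2.85 on the 8, 12 and 24 h arrays of the CTR slide. KRT17 fell from 7.49 to 5.85 (3.13-fold lower). KRT19 stood at 7.07 and 5.50, KRT14 at 5.57 and 4.27 and KRT5 at 6.03 and 5.28, all lower by less than 3-fold. KRT15, a basal keratin, was the rise, with 4 probes changing by 0.76 to 2.52. Of 21 epithelial junction genes 0 rose and 2 fell (9.52%, beside 9.09% of all genes), among them the tight junction claudin CLDN7 from 0.80 to -1.19 (3.96-fold lower), while CDH1 stood at 3.41 and 3.00.

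The IGF binding proteins gave 4 falls of 6 (66.7%, beside 9.09% of all genes) with a median of -2.01. IGFBP5, the form made by mammary epithelium in involution, fell on both probes by 4.46 and 5.55, to the floor of the array on the probe quoted (at least 4.43-fold lower). Both IGFBP5 probes were dim at 2 h and entered through CTR alone. IGFBP6 was measured on both arrays at 8.11 and 6.03 (4.22-fold lower) and IGFBP2 at 1.85 and -0.15 (4.00-fold lower). IGFBP4 and IGFBP3 stood at 1.74 and 3.16 and at 3.39 and 4.10, both higher by less than 3-fold. Smooth muscle and pericyte markers, which myoepithelial cells also express, gave 3 falls of 6: ACTA2 fell from 7.40 to 5.38 (4.08-fold lower), and TAGLN from 7.43 to 4.73 on its probe outside the margin (6.50-fold lower). ACTG2, another smooth muscle actin, fell on both probes alike, from 5.48 to 2.44 on the probe quoted (8.23-fold lower). Fibroblast markers gave 4 falls and 1 rise of 6, and S100A4, which leukocytes also carry, was that rise, from 3.28 to 6.69 (10.6-fold).

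Among redox and glucose genes the shares that rose or fell lay near the 10.5% and 9.09% of all genes. Of 26 antioxidant genes 4 rose (15.4%) and 2 fell (7.69%), with a median of 0.50. HMOX1 (heme oxygenase) was measured on both arrays at 2.98 and 4.71 (3.33-fold higher), SRXN1 (sulfiredoxin) reached 3.13 (at least 10.1-fold) and GSR (glutathione reductase) 1.45 (at least 3.14-fold). GPX8, a peroxidase of the ER, fell from 1.95 to a dim -2.25 (at least 8.81-fold lower). Of 23 BCL2 family and caspase genes 7 rose (30.4%) and 5 fell (21.7%), shares above those of all genes, with a median of 0.16. At the detection limit 4 rose and 0 fell. BCL2L11 (BIM), which promotes death, rose from 0.15 to 2.54 (5.22-fold), and the protective BCL2 went from -0.24 to 3.07 (at least 9.66-fold). BAX, a pore-forming effector, stood at 1.81 and 1.82. Of 16 genes of glycolysis and glucose uptake 2 rose and 2 fell (12.5% each): ALDOC (aldolase C) rose from -0.11 to 3.13 (9.49-fold), and PGK1 fell from 5.36 to 3.76 (3.04-fold lower). In the cell cycle group 0 of 26 genes rose and 3 fell (11.5%, again near the share of all genes), among them the survivin gene BIRC5, from 1.67 to -0.18 (3.61-fold lower), and RRM2 of ribonucleotide reductase, from 1.90 to 0.27 (3.10-fold lower).

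Few genes of protein synthesis, protein degradation and respiration passed 3-fold. None of 29 proteasome subunits (median -0.27) and none of 47 nuclear-encoded oxidative phosphorylation subunits (median -0.18) passed 3-fold, and of 31 translation initiation factors 1 fell (median -0.31). Of the 75 cytosolic ribosomal protein genes 68 were lower, with a median of -0.72 beside -0.22 for all genes. Over genes with a probe above background on both arrays the medians were -0.73 and -0.35. The group's medians from 2 to 24 h were -0.82, -0.74, -0.26, -0.64, -0.33 and -0.46. The summed linear level of the ribosomal protein genes was 13044 on CTR and 7895 at 30 min. Their median level on CTR was 7.33, and the part of saturation in their values was not tested. At 3-fold there was 1 rise and 1 fall. The fall was RPS29, from 8.23 to 6.04; its probe was saturated on CTR, so 4.59-fold is a lower bound. The rise was RPL37A, whose probes changed by -0.60 and 7.89. GAPDH and ACTB stood at 8.24 and 7.53 and at 8.22 and 7.42, both saturated on CTR, with changes of -0.71 and -0.81. The 3 reference genes of the study's PCR work changed by -0.92 to 0.10.

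Against the other heat arrays the 30 min array lay closest to the 2 h array. At 3-fold, 38 probes were higher and 326 lower at 30 min than at 2 h, whereas 1931 were higher and 632 lower than at 4 h, and 1835 higher and 1084 lower than at 16 h, all on 1 slide. Against 8, 12 and 24 h, on the slide of CTR, 1964, 2230 and 1844 probes were higher and 1395, 1314 and 1397 lower. Every change on a heat array shares the CTR array, so the changes below are listed beside each other and are not separate evidence. The 280 probes that rose with detection on both arrays had median changes of 2.26, 2.05, 0.61 and 0.90 on the slide of the 30 min array, in order of time, and of -0.05, -0.24 and -0.08 on the heat arrays of the CTR slide. The 783 that fell had medians of -1.96, -1.86, -1.27 and -1.22 on the first slide named, and of -0.49, -0.59 and -0.43 on the second. The chemokine group was at 5.83, 5.66, -0.29 and 0.67 on the 30 min, 2, 4 and 16 h arrays, and the NF-κB group at 2.51, 2.34, -0.63 and 0.11. Leukocyte markers took the same course, at 3.49, 3.51, -1.24 and 0.76. Collagen chains moved from -1.98 and -2.23 to -1.19 and -0.61. Against 4 h on the same slide, 11 of the 14 chemokine genes were 3-fold higher at 30 min and 3 of the 10 collagen chains were lower.

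**Figure D4:**
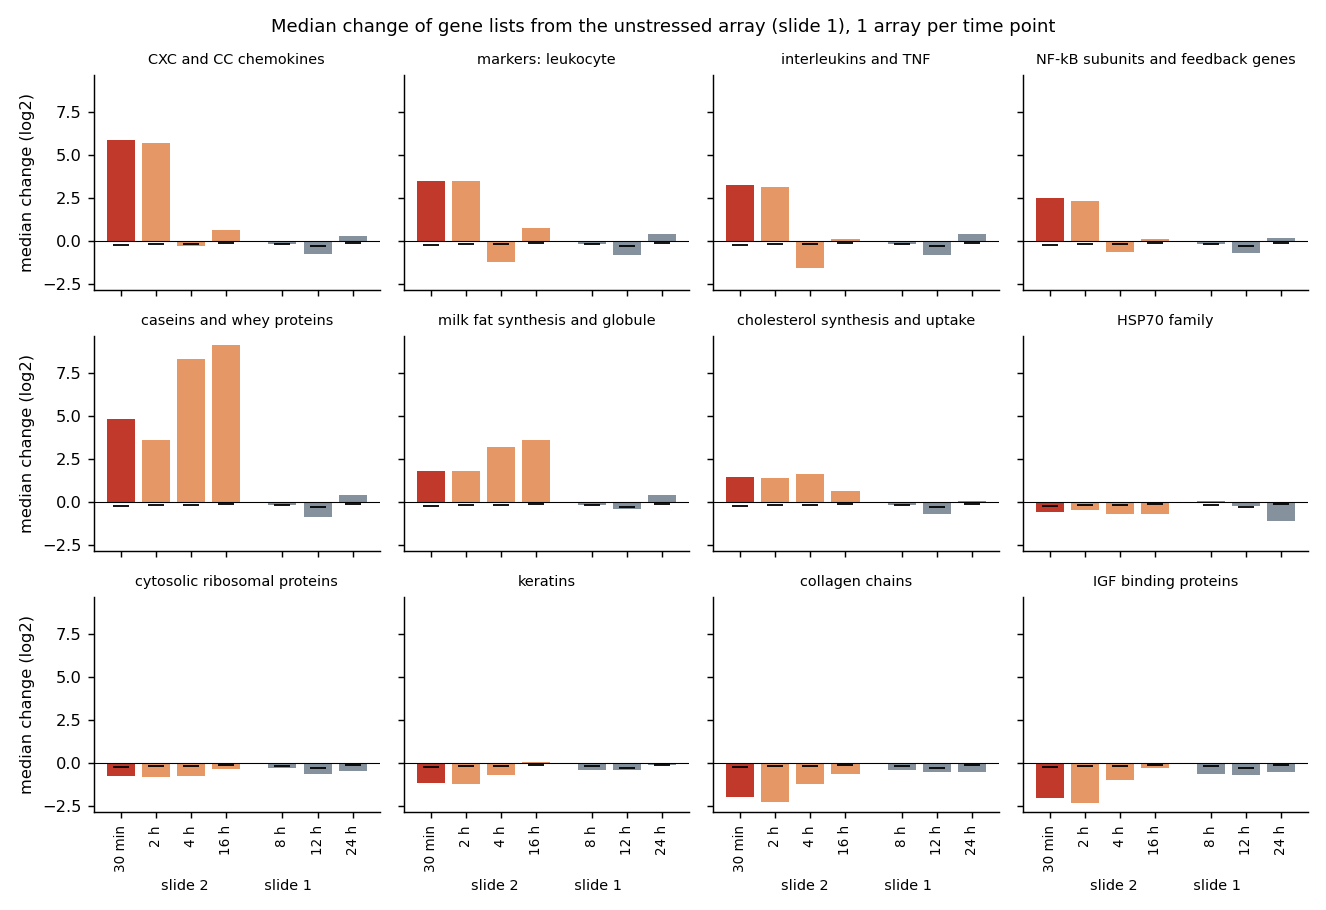
Median change of 12 gene groups against CTR (y axis, log2) as bars for each heat array (x axis), with the arrays of the CTR slide set apart on the right and dashes for the median of all genes. Chemokine genes were at 5.83 at 30 min and -0.29 at 4 h, while caseins and whey proteins were at 4.82 at 30 min and 8.28 at 4 h.

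Among genes with at least 2 probes, ranked by the probe that moved least, the 10 highest rises were IL8, IFITM2, G0S2, CCL3, SRGN, CCL5, CCL4, CSF1R, IL1B and CTSZ. IFITM2, an interferon-induced membrane protein that restricts viruses, reached 5.30 (at least 45.2-fold). G0S2, an inhibitor of triglyceride lipase, reached 5.21 (at least 42.4-fold), the granule proteoglycan SRGN 6.11 (at least 79.4-fold) and the lysosomal protease CTSZ 3.82 (at least 16.2-fold). On the probes quoted all 10 were dim on CTR, and SRGN, CSF1R and CTSZ are genes that leukocytes express strongly. The 10 largest falls were COL4A1, IGFBP5, KRT8, NCAM1, SLITRK2, MIPOL1, HAND1, ACTG2, SERPINH1 and HSD3B1. All probes of COL4A1, IGFBP5, NCAM1 and HAND1 were dim at 2 h. They entered through CTR alone, so these falls describe the probes and do not support a difference. NCAM1, a neural adhesion molecule, fell on 4 probes by 3.50 to 5.59, to the floor on the probe quoted (at least 2.92-fold lower). HAND1, a transcription factor of heart and trophoblast, fell from 0.82 to a dim -2.25 (at least 4.02-fold lower). HSD3B1, an enzyme of steroid synthesis, fell from 3.77 to 0.87 on the probe measured on both arrays (7.47-fold lower). Its other probe was dim on both arrays and gives no fold. SLITRK2 and MIPOL1 lay so near the CTR detection limit, at -0.07 and -0.03, that only falls of at least 2.17-fold and 2.23-fold can be stated.

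Probes of the mitochondrial genome, singled out after their values were seen, gave different answers for parts of 1 transcript. COX2 and COX1 are cytochrome c oxidase subunits encoded there. The 4 probes are printed in full because 2 of them share 48 bases; the capitals mark the only mismatch in the shared stretch, G41A, counted from the 5′ end of A_73_102941, which is base 29 of A_73_P097581. Positions are chrM:7954-8013, chrM:7966-8025, chrM:6489-6549 and chrM:7166-7225 in the order printed, all on the plus strand of HGSC Btau_3.1.
COX2 A_73_102941: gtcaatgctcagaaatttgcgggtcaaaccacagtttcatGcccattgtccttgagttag
COX2 A_73_P097581: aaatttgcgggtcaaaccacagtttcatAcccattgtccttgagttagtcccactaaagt
COX1 A_73_P099546: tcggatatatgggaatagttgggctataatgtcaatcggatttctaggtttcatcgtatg
COX1 A_73_103763: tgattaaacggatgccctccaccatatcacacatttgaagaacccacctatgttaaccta

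COX2 stood at 5.98 on CTR and 7.13 at 30 min on the first probe, a change of 1.15, and at a dim -0.93 and 7.23 on the second, a change of 8.16. COX1 changed by 8.59 on A_73_P099546, from -2.52 to 6.07, and by -0.84 on A_73_103763, from 7.89 to 7.05. Over the 36 plus-strand probes of the mitochondrial genome that entered, 18 rose and 6 fell, beside 10.8% each way of all probes. These leave out 2 minus-strand probes, that of ND6 (change 1.67) and A_73_P099266 (change -1.07, dim on both arrays). Of the 36, the 14 with a CTR level of 5 or more changed by -2.01 to 1.40. The 13 that were dim on CTR entered through the 2 h array and changed by 1.68 to 8.59. Levels over the 36 probes had an SD of 4.12 on CTR, of 1.97 and 1.83 on the 30 min and 2 h arrays, and of 3.84 to 4.08 on the later arrays. Against CTR, 18 also rose on the 2 h array, 1 on the 16 h array and 0 on the other 4.

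**Figure D5:**
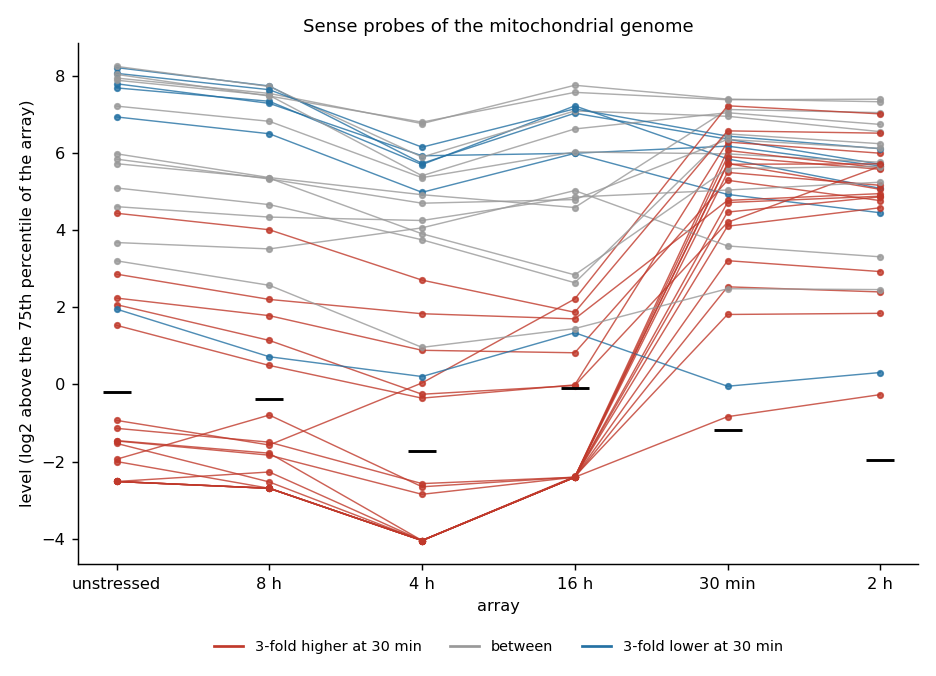
Level of the 36 plus-strand mitochondrial probes (y axis, log2 above the 75th percentile) on 6 of the arrays (x axis), with 1 line per probe coloured by its 3-fold call at 30 min and the detection limits as black dashes. The levels spread with an SD of 4.12 on CTR and drew together at 30 min and 2 h, with SDs of 1.97 and 1.83.

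Overlapping probes outside the mitochondrial genome were compared in the same way, also after the values were seen. Of 542 pairs of probes of 1 gene that shared at least 40 bases with up to 4 mismatches, 25 (4.61%) gave changes more than 3-fold apart at 30 min, against 24, 24 and 68 on the 2, 4 and 16 h arrays and 12, 12 and 16 on the 8, 12 and 24 h arrays. The 25 pairs were picked by their gap in change. For 16 of them the levels lay closer to each other at 30 min than on CTR, beside 227 of all 542 pairs. APOE, the apolipoprotein of macrophages and liver, was such a case: its probes A_73_100548, A_73_P038086 and A_73_P110891 stood at -2.22, 3.60 and -1.36 on CTR and at 7.49, 7.48 and 7.48 at 30 min. The rise of APOE was therefore 3.87 on the probe measured on both arrays and 9.70 and 8.84 on the probes that were dim on CTR. Changes of single probes that were dim on CTR carry this uncertainty in size.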

How the data were processed

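The authors extracted spot intensities with Agilent Feature Extraction 9.5.3.1 (file headers) and deposited 1 scanner file per array and a table of log2 values. That table was shifted to the 75th percentile in GeneSpring GX and, as tested on the values, centred on each probe's median over 8 arrays. The members and gene lists were chosen with earlier results of these data known. Here, changes were differences of deposited log2 values, and levels added them to the CTR scanner intensity (log2 of the processed signal minus its 75th percentile). Spots of a probe were averaged and a gene took the median over its probes. The quoted probe was the middle one by size of change. A detection limit was set per array from the background flags. At 30 min it was taken as 2.32 above the floor, the gap seen on the other arrays. Named genes were the members of the lists and, among genes with at least 2 probes, the 10 largest rises and falls by the probe that moved least. The dark patch was rows 216 to 330 and columns 30 to 59; the margin reached rows 180 to 346 and columns 20 to 69. Counting was tested on simulated data. Tools were Python 3.11.15, pandas 2.3.3, numpy 2.4.6, matplotlib 3.10.9 and, for normexp with an offset of 50, R 4.3.3 with limma 3.58.1. The closing section gives the alternatives. The number of arrays, 1 per condition, limits the precision. Some genes of the lists are not reported here.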

Additional observations from a re-analysis of the deposited data

How the results depend on the processing

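The share of higher probes among those that changed 3-fold, 49.9% as reported, moved with most choices. With probes above background on both CTR and 2 h it was 18.7% (280 higher, 1219 lower), on CTR alone 15.7% (280 and 1507), on all 7 arrays other than 30 min 24.0% (209 and 662), and without a detection filter 32.3% (1813 and 3807). Keeping the dark patch gave 58.1% (2483 and 1794), a 2-fold threshold 42.4% (2704 and 3675), centring 61.9% (2133 and 1314) and counting gene symbols 53.6% (870 and 754). Scanner intensities gave 55.0% over all rows (6013 and 4915), where the 30 min file is off its grid, and 54.6% in the upper array rows (799 and 664), in which deposited values gave 46.1% (635 and 743) and normexp 63.8% (428 and 243). Alternatives chosen after seeing the data gave 26.3% for probes measured on both arrays (280 and 783), 42.9% with dim values at the detection limit (820 and 1091), 47.2% without the margin (1524 and 1702), and, against the 4 h and 16 h arrays of the same slide, 75.3% (1931 and 632) and 62.9% (1835 and 1084). Where samples or probes were fewer, counts fell by construction; otherwise the cause was not tested.

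Of 40 gene group medians, 3 turned sign from a called value without the detection filter (milk fat -0.021, endothelial markers -0.99, adipocyte markers -0.25). The leukocyte marker median turned to -0.25 over the 8 genes above background on both CTR and 2 h. Among single genes, CCL20 turned to -0.99 without the filter, the difference between the floors of the arrays; RPL37A turned to -0.60 with its brightest probe and with detection on both CTR and 2 h. No other group median or gene described above with a called change turned sign under the alternatives run. Not every gene could be tried. Of 151 genes, 96 remained with detection on both CTR and 2 h, and 89 with scanner intensities in the upper rows. Genes without a probe above background on both CTR and 2 h dropped out of the former. Moving dim values to the detection limit cannot turn a sign. No paired analysis was possible because each condition had 1 array, and for the same reason no replicate could be left out. Changes of dim probes are limited by the detection limits of CTR and 30 min.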
